A study of Homo sapiens with 6 samples.

Results

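The solute carrier (SLC) genes described here are the rows of the deposited table whose names consist of SLC, a family number, the letter A and a member number. 11 carriers of that form were left out by name. Among them are the red cell anion exchanger, the main glucose and cystine carriers and the amino acid carriers SLC1A5 and SLC7A5. This left 179 of the 14821 genes in the table, and 176 of them had a CPM (counts scaled to a common library size) of at least 1 in at least 3 of the 6 libraries and were tested. The pattern does not take names such as SLC35B1 or SLCO4A1. The members just inside the limit were SLC44A4, SLC7A8 and SLC10A5, with a third-highest CPM of 1.01, 1.03 and 1.05, and those outside it were SLC25A18, SLC16A8 and SLC18A1 at 0.881, 0.540 and 0.293.

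The libraries came from F36P, a human line long grown from an acute erythroid leukaemia. In 3 libraries the cells had been transduced with the retroviral plasmid MSCV-PIG-AM-ERG, which carries ERG, a DNA-binding regulator of the ETS type, and in 3 with the empty plasmid MSCV-PIG (vector; genotype WT in the labels). Both groups went through 4 days of puromycin at 1 µg/ml, so the controls carried a virus and had the drug too. The labels call the replicates biological but do not say that they came from separate transductions, and p-values therefore measure the spread between these samples. The submitters asked how ERG holds back erythroid differentiation, and the comparison given here is that of carrier RNA levels with ERG against vector.

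Solute carriers are membrane proteins that move small molecules across the cell's outer membrane and the membranes of organelles, either down a gradient or driven by an ion gradient. Families are numbered by sequence relation, so members of a family often, though not always, carry like substrates. In red cell precursors carriers supply amino acids, glucose, metal ions and, in mitochondria, the substrates of haem synthesis. In the granules of mast cells, basophils and platelets a vesicular monoamine carrier loads histamine and serotonin.

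The libraries held 10257141 to 14803031 counts, of which 0.853% to 0.917% fell on the 176 carriers. ERG itself was at 97.4, 103 and 104 CPM where it was introduced and 28.1, 14.6 and 22.4 CPM with vector, after TMM normalisation (a scaling of library sizes), which is also the scale of all CPM values here except those at the filter limit above, which are counts over the plain library total. All 8 erythroid markers were tested, of which 4 fell and 0 rose, while 1 of 4 T cell, 1 of 4 B cell and 2 of 5 epithelial or stromal markers were tested. Of these, the B cell marker CD79A was at 34.2 against 16.9 CPM (log2 1.02, edgeR adjusted p = 0.263; 0.0055 with a term for library set, defined next), COL1A1 at 2.26 against 5.45 CPM (log2 -1.26, adjusted p = 0.179), EPCAM at 0.933 against 1.93 CPM (log2 -1.04, adjusted p = 0.289) and the T cell marker CD2 near 1 CPM in both groups. Their part in the results was not tested. The counts of ERG replicates 1 and 2 nearly coincided (chi-square of 2.20 per degree of freedom over genes), while every other pair of libraries had 21.6 to 86.9. The labels do not say whether these 2 share a culture. They were counted as 2 replicates, and if they are not independent, SDs over 3 ERG libraries and p-values are too small. By the same measure vector replicate 1 was nearer to ERG replicates 1 and 2 than to the other vector libraries, and ERG replicate 3 was nearer to vector replicates 2 and 3 than to the other ERG libraries. These are called library set A (ERG 1, ERG 2 and vector 1) and set B (ERG 3, vector 2 and vector 3), sets drawn from the data and not from the labels.

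Among the 176 carriers 6 changed with ERG at an edgeR adjusted p under 0.05, 3 higher and 3 lower. These are 3.41% of the carriers, against 2.2% of all 14203 genes tested (1.47% higher and 0.732% lower). The 3 that rose were SLC45A3, SLC18A2 and SLC30A10, and the 3 that fell were SLC2A14, SLC25A21 and SLC66A2. They belong to 5 of the 11 substrate classes, and no class had more than 1 member called in the same direction. The median log2 fold change of all carriers was -0.10, against -0.01 of all genes, with 75 carriers above 0 and 101 below.

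**Figure D1:**
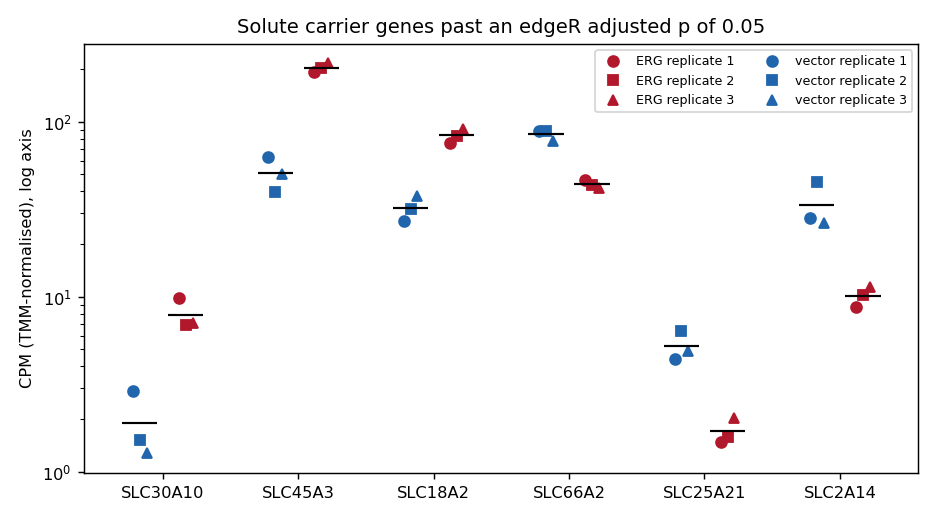
CPM (log axis) of the 6 carriers past the threshold in each library, vector in blue and ERG in red, with a horizontal bar at the mean of 3 libraries. In each of the 6 genes the red and blue points do not overlap, and SLC45A3 shows the highest ERG levels, from 193 to 215 CPM.

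SLC45A3, also called prostein and best known from prostate epithelium, where its gene is a fusion partner of ETS genes in cancer, belongs to a family related to sugar carriers. It stood at 193, 202 and 215 CPM with ERG and 63.3, 39.8 and 50.5 CPM with vector. The groups lay far apart, with the lowest ERG library 3 times or more above the highest vector library. The rise was 3.97-fold (203 ± 11.4 against 51.2 ± 11.7 CPM, SD over 3 libraries each; log2 fold change 1.99 with an SE of 0.19, edgeR adjusted p = 0.01). The gene lies on the minus strand of chromosome 1, from 205657851 to 205680459 (hg38, GENCODE release 29).

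SLC18A2, the vesicular monoamine transporter VMAT2 that fills granules with histamine, serotonin and other amines, was at 75.9, 83.4 and 91.3 CPM with ERG and 27.1, 31.6 and 37.8 CPM with vector. It rose 2.60-fold (83.5 ± 7.73 against 32.2 ± 5.35 CPM; log2 1.38 with an SE of 0.16, edgeR adjusted p = 0.0124) and lies on chromosome 10, from 117241073 to 117279430. The table also lists an antisense gene, SLC18A2-AS1, with 136, 142 and 54 counts with ERG and 39, 16 and 22 with vector. No source used here says if strand was recorded, so reads of the 2 genes may be mixed where they overlap.

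SLC30A10 exports manganese, although its family is named for zinc. Its level was low, at 9.78, 6.86 and 7.06 CPM with ERG and 2.90, 1.52 and 1.27 CPM with vector, which corresponds to 125, 100 and 104 against 33, 20 and 13 counts. All ERG libraries lay above all vector libraries. The rise was 4.13-fold (log2 2.05, SE 0.37, edgeR adjusted p = 0.0416), and the gene lies on chromosome 1, from 219685427 to 219958647.

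The 250 bases before a RefSeq start site of each of these 3 genes are shown because they are the carriers that rose together with a factor of the ETS family. Only 1 start site per gene was used, here and in the shares below, and it can differ from the end of the gene in GENCODE. Capitals mark each GGAA, the core shared by ETS binding sites, or its reverse complement TTCC. The windows are chr1:205680510-205680759 on the minus strand, chr10:117240864-117241113 on the plus strand and chr1:219959099-219959348 on the minus strand (GRCh38.p14), each written 5′ to 3′ towards the gene.
SLC45A3: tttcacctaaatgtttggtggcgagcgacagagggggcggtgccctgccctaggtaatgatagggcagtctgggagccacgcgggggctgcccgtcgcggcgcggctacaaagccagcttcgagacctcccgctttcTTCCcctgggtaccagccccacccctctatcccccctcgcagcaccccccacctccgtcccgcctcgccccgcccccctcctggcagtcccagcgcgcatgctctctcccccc
SLC18A2: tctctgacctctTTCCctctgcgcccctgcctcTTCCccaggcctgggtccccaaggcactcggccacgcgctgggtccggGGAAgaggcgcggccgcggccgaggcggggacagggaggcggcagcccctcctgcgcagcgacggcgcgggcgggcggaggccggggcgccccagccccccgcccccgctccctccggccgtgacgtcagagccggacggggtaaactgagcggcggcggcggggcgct
SLC30A10: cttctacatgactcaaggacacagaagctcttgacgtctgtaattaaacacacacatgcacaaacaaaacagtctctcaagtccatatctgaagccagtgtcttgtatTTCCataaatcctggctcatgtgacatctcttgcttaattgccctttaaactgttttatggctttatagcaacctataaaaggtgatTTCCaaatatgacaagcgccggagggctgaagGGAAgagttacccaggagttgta
The core occurs 1, 3 and 3 times in the windows of SLC45A3, SLC18A2 and SLC30A10. It is so short that 92.8% of the 27305 promoter windows of this length hold it on either strand, with a median of 3 copies. The longer strings CCGGAAGT and CAGGAAGT, each of which contains GGAA, and the GATA-type string AGATAA were searched on both strands. They are in 3.64%, 2.71% and 9.37% of all windows, in 7.52%, 2.90% and 4.81% of the 10168 windows of tested genes, in 4.73%, 2.70% and 3.38% of the 148 carriers with a window, and in 0 of the 5 called carriers with one. A match is a run of letters, not a binding site, and its lack says only that these letters are not in this window.

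SLC2A14, the glucose transporter GLUT14, was at 8.68, 10.3 and 11.3 CPM with ERG and 28.2, 45.5 and 26.4 CPM with vector, a 3.30-fold fall without overlap (log2 -1.72, SE 0.25, edgeR adjusted p = 0.0227). The gene lies on chromosome 12, from 7812512 to 7891148, and is a near-identical copy of its neighbour SLC2A3, so the split of reads between them is uncertain. SLC2A3, which is not among the members, was at 107, 111 and 80.3 CPM with ERG and 66.5, 50.04 and 34.6 CPM with vector (log2 0.98, edgeR adjusted p = 0.1), the opposite sign. The sum of both was 116, 121 and 91.7 CPM with ERG and 94.7, 95.5 and 61.1 CPM with vector, which overlap.

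SLC66A2, a PQ-loop protein listed as PQLC1 in GENCODE release 29, was at 46.5, 43.5 and 41.7 CPM with ERG and 88.6, 88.8 and 77.2 CPM with vector. The 2 groups did not overlap and each spread little, and SLC66A2 fell 1.93-fold (log2 -0.95, SE 0.13, edgeR adjusted p = 0.0188). Its place is chromosome 18, from 79902420 to 79951664. SLC25A21, the mitochondrial carrier of oxodicarboxylates such as 2-oxoadipate, was at 1.49, 1.58 and 2.04 CPM with ERG and 4.40, 6.40 and 4.89 CPM with vector. It fell 3.06-fold (log2 -1.62, SE 0.30, edgeR adjusted p = 0.0433) from a low level, with 184 counts in all with vector and 72 with ERG. It lies on chromosome 14, from 36678431 to 37172866, and its antisense gene SLC25A21-AS1 had 95 counts over all libraries.

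The 6 calls depended on single libraries. Without ERG replicate 1 or ERG replicate 2, or with both summed to 1 library, edgeR called 0 carriers and 0 genes in all. At an unadjusted p under 0.05 there were then 26, 26 and 27 carriers and 1278, 1256 and 1277 genes. DESeq2 called 9 carriers (5.11%) in each of these 3 settings, the 6 among them. It called 410, 411 and 422 genes in all (2.89%, 2.89% and 2.97%), while limma called 0 carriers and 0 genes. SLC45A3 had adjusted p = 0.0716 and 0.0729 without ERG replicate 1 and 2 and stayed under the threshold without any other library, while SLC18A2 also missed it without vector replicate 2 (0.0743). Without vector replicate 2 or vector replicate 3, SLC66A2 had 0.0836 and 0.0555, SLC2A14 0.0616 and 0.0599, SLC30A10 0.16 and 0.124 and SLC25A21 0.152 and 0.111. SLC30A10 and SLC25A21 also missed it without ERG replicate 3 (0.0522 and 0.0501). Over all alternatives run, the log2 fold change of SLC45A3 lay between 1.84 and 2.17, that of SLC18A2 between 1.27 and 1.51 and that of SLC66A2 between -1.01 and -0.91. The others moved more, SLC2A14 between -1.86 and -1.43, SLC25A21 between -1.76 and -1.14 and SLC30A10 between 1.495 and 2.48.

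With a term for the library set in the edgeR model, 33 of the 176 carriers passed, 12 higher and 21 lower, which is 18.8% against 13.2% of all genes (7.2% higher and 5.96% lower). The sets were drawn from these same libraries and ERG replicates 1 and 2 lie very close together, so the p-values with this term may be too low. With ERG replicates 1 and 2 summed, 20 carriers passed with the term, or 11.4% against 7.05% of all genes. Without regard to any test, 20 carriers had all ERG libraries above all vector libraries and 28 had them all below, together 27.3% of the carriers, against 21.9% of all genes (12.3% above and 9.54% below). SLC10A5, SLC14A2, SLC16A4 and SLC44A4 reached 1 CPM only in the ERG libraries, and SLC7A8 only in the vector libraries. The filter kept them through that group alone, so their lack of overlap was fixed by it. Such genes were not counted apart in the share of all genes. An unadjusted p under 0.05 was reached by 41 carriers, 17 higher and 24 lower, where 15.9% of all genes reached it (9.25% higher and 6.66% lower). The 33 carriers include the 6 and are marked in the plot by substrate class.

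**Figure D2:**
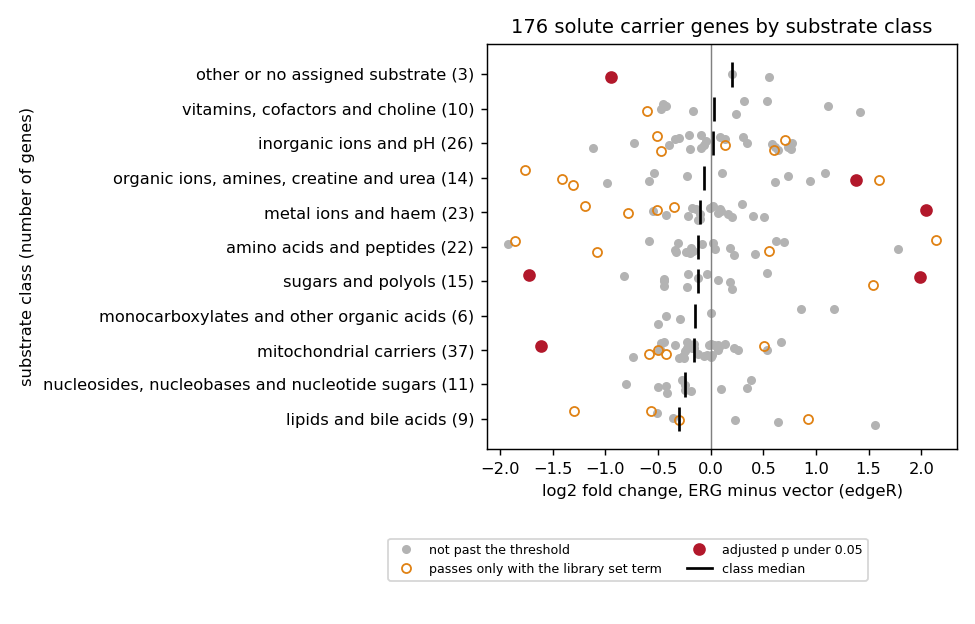
Log2 fold change (ERG minus vector, edgeR) of each of the 176 carriers, 1 point a gene, in rows by substrate class with the number of genes in brackets. Filled red points passed the threshold, open orange points passed only with the library set term, and black bars are class medians, which lie between -0.31 and 0.21.

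Set A and set B share no library, so the ERG difference could be taken in each. In differences of log2 CPM (prior count of 2), 125 of 176 carriers had the same sign in both sets, 55 higher and 70 lower, or 71% against 67% of all genes. Across the carriers the differences had a Pearson r of 0.726 and a Spearman rho of 0.651, against 0.623 and 0.495 across all genes. The carriers within a set share its libraries and are not independent. SLC45A3 differed by 1.64 in set A and 2.26 in set B, SLC18A2 by 1.55 and 1.40, and SLC66A2 by -0.98 and -0.99. These 6 were called on the same libraries, so their like sign follows in part from the call.

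**Figure D3:**
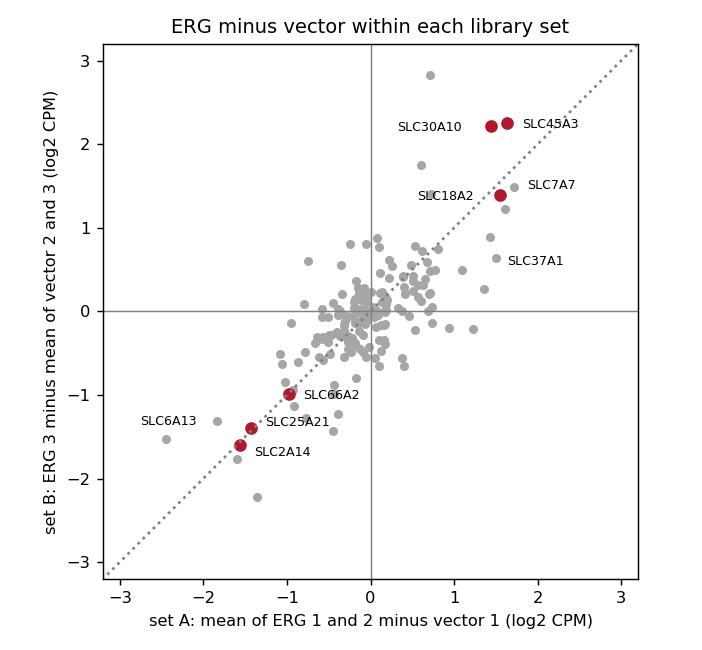
Difference of log2 CPM, ERG minus vector, of each carrier within set A (x axis) and set B (y axis), with the dotted line of equal change and the 6 called carriers in red. SLC18A2 and the 3 called carriers that fell lie near the line, SLC45A3 and SLC30A10 above it, and SLC37A1 (1.501 in set A, 0.64 in set B) below it.

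Carriers of sugars and polyols, which include glucose transporters but not SLC2A1 and SLC2A3 (left out by name), numbered 15. They had 1 higher (SLC45A3), 1 lower (SLC2A14) and a median of -0.13. Their summed level was 510, 532 and 516 CPM with ERG and 367, 395 and 386 CPM with vector. Without SLC45A3, left out after its value was seen, the sums were 317, 330 and 301 against 304, 356 and 335 CPM and overlapped. SLC37A1, of the family of glucose 6-phosphate carriers in the endoplasmic reticulum, was at 70.1, 74.5 and 25.9 CPM with ERG and 25.4, 15.7 and 17.4 CPM with vector. Its ERG libraries all lay above the vector libraries, but ERG replicate 3 only just, and the log2 fold change of 1.54 did not pass (edgeR adjusted p = 0.108; 0.0046 with the set term). SLC37A4, the glucose 6-phosphate translocase and the member with the second-highest mean CPM, had a log2 difference of -0.45 (95% interval -0.95 to 0.05).

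Metal ion and haem carriers comprised 23 genes, with 1 higher (SLC30A10), 0 lower and a median of -0.10. The set term gave 1 higher and 4 lower. The 4 were SLC39A8, SLC41A1, SLC40A1 and SLC39A10. SLC39A8, the importer ZIP8 of zinc and manganese, was at 114, 101 and 108 CPM with ERG and 223, 172 and 163 CPM with vector. Its log2 difference of -0.79 missed the threshold (SE 0.16, edgeR adjusted p = 0.0541; 0.0012 with the set term). The magnesium carrier SLC41A1 was at 15.6, 19.3 and 33.9 CPM against 35.4, 60.7 and 61.4 CPM (log2 -1.19, adjusted p = 0.133), with its highest ERG library close to its lowest vector library. Ferroportin, SLC40A1, the only known exporter of iron from cells, was at 248, 240 and 297 CPM against 347, 423 and 350 CPM (log2 -0.51, 95% interval -0.88 to -0.15, adjusted p = 0.162).

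The zinc families gave few differences beyond these. Of 11 tested SLC39 importers 0 passed (median -0.10; 9 had a 95% interval within 2-fold either way), and of 6 tested SLC30 exporters 1 passed (median -0.04). SLC39A3, the importer ZIP3 and second-highest of the class, was at 204, 193 and 141 CPM with ERG and 225, 142 and 114 CPM with vector, with the high values in set A of both groups (log2 0.16, interval -0.47 to 0.79; -0.02 with the set term). The summed level of the class was 1568, 1501 and 1541 CPM with ERG and 1847, 1753 and 1710 CPM with vector, without overlap. Without SLC40A1 and SLC39A8, left out after their values were seen, it was 1207, 1160 and 1135 against 1276, 1159 and 1197 CPM and overlapped.

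**Figure D4:**
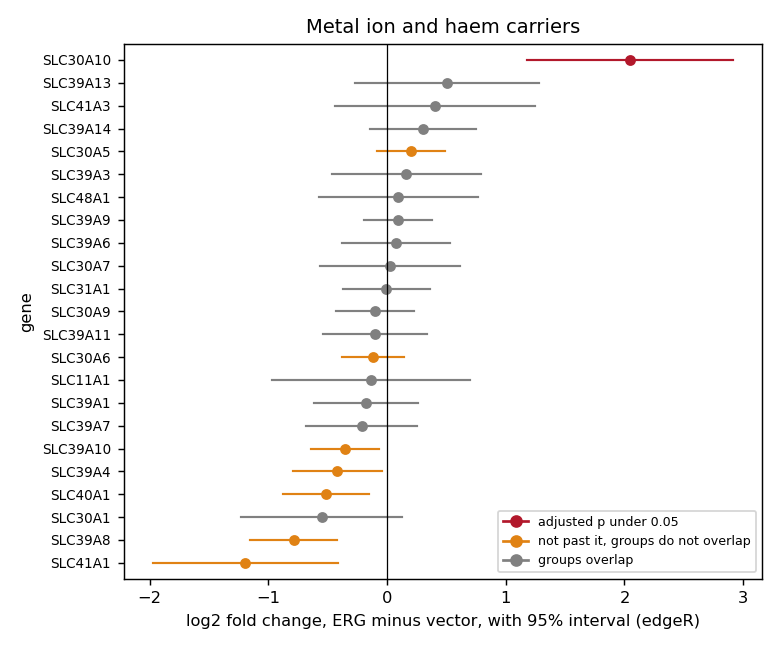
Log2 fold change (ERG minus vector, edgeR) with its 95% interval for the 23 metal ion and haem carriers. SLC30A10 (2.05) stands alone on the right, and 7 carriers with orange bars between -1.19 and 0.20 had no overlap between groups without passing the threshold.

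The SLC25 family, most but not all of whose members lie in the inner mitochondrial membrane, was the largest class, with 37 genes. It had 0 higher and 1 lower (SLC25A21), 12 above 0 and 25 below, and a median of -0.15. Of these 37, 30 had a 95% interval within 2-fold either way. The ADP/ATP carriers SLC25A5 and SLC25A6 and the phosphate carrier SLC25A3 were the highest of the 176 carriers per length. They were at 287, 266 and 199 CPM per kilobase of their main transcript over the 6 libraries. SLC25A6 was at 572, 576 and 520 CPM with ERG and 727, 457 and 444 CPM with vector (log2 0.03, interval -0.47 to 0.54; -0.07 with the set term). SLC25A5 was at 314, 306 and 410 against 352, 395 and 418 CPM (log2 -0.18, interval -0.56 to 0.21). SLC25A5 and SLC25A6 have processed copies in the genome, so their counts are uncertain.

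SLC25A25, an ATP-magnesium/phosphate carrier, was at 33.5, 32.6 and 34.02 CPM with ERG and 50.6, 48.5 and 50.7 CPM with vector. The groups were far apart for their spread, and the level with ERG, lower on average, missed the threshold (log2 -0.58, SE 0.12, edgeR adjusted p = 0.0549; 0.0048 with the set term). The antisense gene SLC25A25-AS1 was at 21.9 ± 3.35 against 21.8 ± 4.00 CPM. SLC25A30, a relative of the uncoupling proteins, was at 14.3, 14.9 and 18.4 CPM with ERG and 9.07, 11.3 and 13.01 CPM with vector (log2 0.51, adjusted p = 0.292; 0.0219 with the set term). Picked with its values in view, SLC25A39, the mitochondrial importer of glutathione, was at 171, 163 and 201 CPM against 249, 249 and 257 CPM (log2 -0.50, adjusted p = 0.118; 0.0097 with the set term). The class summed to 2345, 2307 and 2679 CPM with ERG and 2712, 2644 and 2777 CPM with vector, where ERG replicate 3 lay within the vector range.

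**Figure D5:**
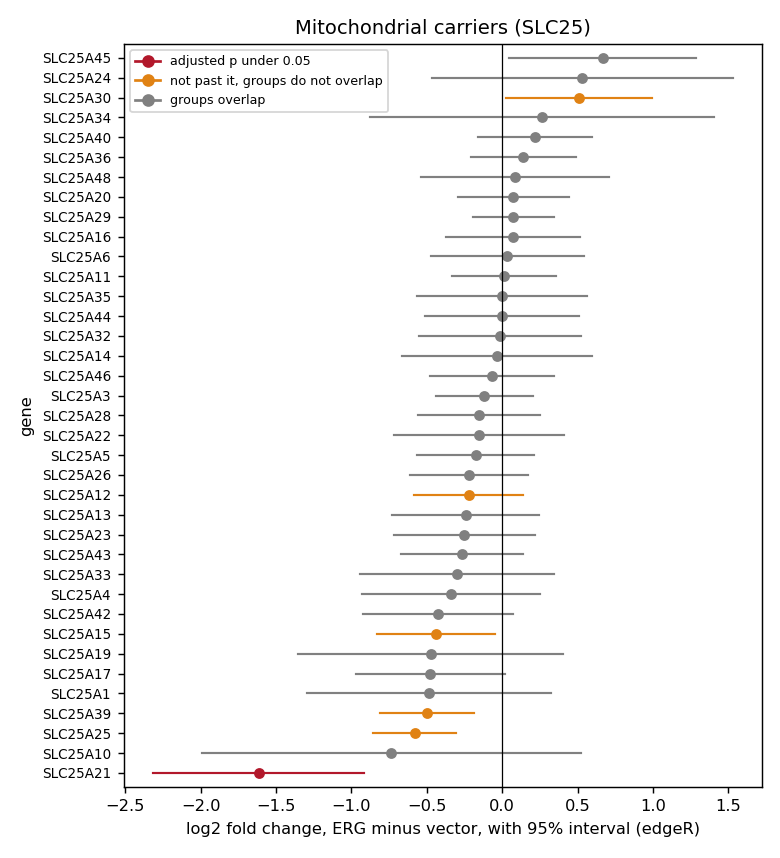
Log2 fold change (ERG minus vector, edgeR) with its 95% interval for the 37 mitochondrial carriers. Most intervals cross 0 within 1 log2 unit, SLC25A21 (-1.62) is at the lower left, and SLC25A25 and SLC25A39 have short intervals below 0.

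Among 22 amino acid and peptide carriers 0 passed, with a median of -0.12, and the set term gave 2 higher and 2 lower. SLC7A7, a light chain that exports cationic amino acids, was at 7.35, 6.17 and 2.51 CPM with ERG and 1.94, 1.07 and 0.587 CPM with vector (log2 2.14, 95% interval 0.85 to 3.43, edgeR adjusted p = 0.107; 0.0086 with the set term). The neutral amino acid carrier SLC6A19 was at 3.44, 3.56 and 2.10 CPM against 9.24, 17.6 and 6.07 CPM (log2 -1.86, adjusted p = 0.0846; 0.0198 with the set term). Both were low genes whose groups did not overlap.

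SLC38A10 was at 93.9, 101 and 73.0 CPM with ERG and 68.7, 60.8 and 53.2 CPM with vector (log2 0.55, edgeR adjusted p = 0.165; 0.0199 with the set term), with ERG replicate 3 close to vector replicate 1. The most abundant members of the class were SLC38A2, the sodium-coupled carrier SNAT2 of neutral amino acids, and SLC7A1, the cationic amino acid carrier CAT1. The amino acid carriers SLC1A5 and SLC7A5, left out by name, were higher. Their means were 1056 and 426 CPM with ERG and 889 and 404 CPM with vector. SLC38A2 was at 385, 395 and 218 CPM with ERG and 262, 206 and 148 CPM with vector, and the groups overlapped (log2 0.70, interval 0.02 to 1.37, adjusted p = 0.299). SLC7A1 was at 218, 218 and 125 CPM against 158, 132 and 128 CPM (log2 0.42, interval -0.11 to 0.96). In both genes ERG replicate 3 stood well under the other ERG libraries.

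Of the 14 carriers of organic ions, amines, creatine and urea 1 was higher (SLC18A2) and 0 lower (median -0.06), and the set term gave 2 higher and 3 lower. The creatine carrier SLC6A8 was at 12.5, 12.9 and 20.8 CPM with ERG and 21.8, 52.8 and 48.4 CPM with vector (log2 -1.41, SE 0.36, edgeR adjusted p = 0.106; 0.0016 with the set term). SLC14A1, the urea carrier that bears the Kidd blood group, was at 3.36, 4.04 and 1.43 CPM against 11.4, 4.72 and 5.77 CPM (log2 -1.31, adjusted p = 0.248; 0.0020 with the set term). Neither gene's groups overlapped, but in each the nearest libraries of the groups were close. SLC22A23, second-highest of the class and of no settled substrate, had a log2 difference of -0.58 (interval -1.34 to 0.17).

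Of 26 carriers of inorganic ions and pH 0 passed (median 0.02), and the set term gave 3 higher and 2 lower. SLC12A9, of the cation-chloride cotransporter family and picked with its values in view, was at 41.8, 43.7 and 43.1 CPM against 60.1, 60.6 and 62.3 CPM (log2 -0.51, SE 0.11, adjusted p = 0.071; 0.0069 with the set term). Each group of SLC12A9 spread over few CPM, and the groups lay apart.

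The sodium-calcium, potassium exchanger SLC24A1 was at 21.0, 19.3 and 18.9 CPM with ERG and 13.1, 9.67 and 13.5 CPM with vector (log2 0.71, edgeR adjusted p = 0.113; 0.0260 with the set term). SLC9A2, a sodium-proton exchanger, was at 6.96, 6.92 and 6.52 CPM with ERG and 9.42, 11.1 and 13.2 CPM with vector, without overlap (log2 -0.72, edgeR adjusted p = 0.144). The anion exchanger SLC4A2 was at 162, 165 and 144 against 170, 131 and 127 CPM (log2 0.14, interval -0.23 to 0.50).

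The 9 members of the SLC10 and SLC27 families, named for bile acids and fatty acids, had 0 calls and a median of -0.31, and with the set term 1 was higher and 3 lower. SLC10A7 was at 72.3, 74.9 and 53.8 CPM with ERG and 41.8, 34.2 and 30.1 CPM with vector (log2 0.92, SE 0.19, edgeR adjusted p = 0.0562; 0.0010 with the set term). SLC10A4 was at 23.4, 20.8 and 33.7 against 41.9, 84.6 and 65.3 CPM (log2 -1.30, SE 0.29, adjusted p = 0.0737; 0.0011 with the set term). SLC10A3 was at 26.4, 23.4 and 22.2 against 43.0, 37.0 and 26.4 CPM (log2 -0.57, adjusted p = 0.232). SLC10A5, named because it is the last of the 4 tested genes of its family, was near 1 CPM with ERG and lower with vector (log2 1.56, adjusted p = 0.2). All 4 had groups without overlap, 2 above and 2 below, where 21.9% of all genes were without overlap. The 4 were set side by side after their values were seen. SLC10A5 reached 1 CPM only in the ERG libraries, so the filter fixed its lack of overlap. SLC27A2, which activates and takes up very long-chain fatty acids, had a log2 difference of -0.31 (interval -0.78 to 0.17, edgeR adjusted p = 0.507). With the set term its log2 difference was -0.44 (edgeR adjusted p = 0.0212).

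Among 10 carriers of vitamins, cofactors and choline 0 passed, with a median of 0.04. The choline carrier SLC44A1 was at 15.6, 15.2 and 13.9 CPM with ERG and 9.24, 3.199 and 8.22 CPM with vector (log2 1.12, edgeR adjusted p = 0.195). The thiamine carrier SLC19A2 was at 12.6, 11.1 and 15.5 against 16.7, 19.95 and 17.7 CPM (log2 -0.47, adjusted p = 0.279). The riboflavin carrier SLC52A2 was at 55.1, 55.7 and 101 against 76.8, 123 and 122 CPM (log2 -0.60, adjusted p = 0.37; 0.0224 with the set term), with the groups overlapping through ERG replicate 3 and vector replicate 1. SLC44A2, the most abundant of the class, had a log2 difference of 0.32 (interval -0.15 to 0.79).

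Neither of the 2 remaining substrate classes had a call, also with the set term. Among 6 carriers of monocarboxylates and other organic acids (median -0.15), SLC16A1, the lactate carrier MCT1, was at 203, 207 and 327 CPM with ERG and 256, 340 and 393 CPM with vector (log2 -0.42, interval -0.99 to 0.15). SLC16A3, the lactate exporter MCT4, was at 19.6, 20.7 and 25.6 against 17.9, 62.4 and 12.8 CPM, where vector replicate 2 alone was high. Its log2 difference of -0.50 became 0.52 without that library, and passed in neither case (adjusted p = 0.69 and 0.477).

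Of 11 carriers of nucleosides, nucleobases and nucleotide sugars, 8 had negative log2 differences (median -0.24). SLC43A3, a carrier of purine nucleobases, was the fourth-highest of the 176 carriers per length (179 CPM per kilobase). It was at 394, 380 and 502 CPM with ERG and 438, 555 and 549 CPM with vector (log2 -0.27, interval -0.68 to 0.14). The nucleoside carrier SLC29A1 (ENT1) was at 40.8, 43.9 and 109 against 42.5, 110 and 107 CPM, which followed the library sets and not the groups. Set A and set B did not overlap in 75 of the 176 carriers (42.6%), against 43% of all genes. The UDP-galactose carrier SLC35A2 and its family member SLC35A5 differed little but without overlap between ERG and vector. Their log2 differences were -0.41 and 0.38 (edgeR adjusted p = 0.275 and 0.281). In the class with no assigned substrate SLC66A3 was at 6.49, 7.61 and 6.04 against 4.40, 5.33 and 3.91 CPM (log2 0.56, adjusted p = 0.324).

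For 97 of the 176 carriers the 95% interval lay within 2-fold either way, as it did for 8827 of the 14203 genes. For the other carriers the interval reached a 2-fold difference or lay wholly past it. The median SE of a log2 fold change was 0.25 for carriers and 0.23 for all genes, with a median level of 21.6 and 27.4 CPM.

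Proteins that work with carriers were taken as a list of 18 genes under 19 names, of which 17 were tested, with 1 higher and 0 lower (median 0.17). ATP1B1, a beta subunit of the sodium pump whose gradient drives many carriers, rose 2.59-fold (76.6 against 29.5 CPM; log2 1.38, SE 0.25, edgeR adjusted p = 0.038). ATP1B3, a further beta subunit on the list, had the opposite sign, at 96.5 against 127 CPM (log2 -0.39, edgeR adjusted p = 0.435). BSG, or basigin, the chaperone that brings lactate carriers to the cell surface, was at 268 against 480 CPM (log2 -0.84, adjusted p = 0.0778, and 0.0040 with the set term). EMB, also on the list, had the sign opposite to BSG, at 22.9 against 12.7 CPM (log2 0.84, adjusted p = 0.227, and 0.0194 with the set term). The scaffold SLC9A3R1 of the sodium-proton exchangers was at 128 against 69.7 CPM (log2 0.88, adjusted p = 0.087, and 0.00018 with the set term). The ABC transporters, which use ATP directly, gave 1 higher (ABCB11, log2 1.51, adjusted p = 0.01) and 1 lower (ABCB10) among 23 tested, with a median of -0.17.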

How the data were processed

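Polyadenylated RNA of 6 F36P libraries was sequenced, per the labels' protocols. Per the submitters' processing notes, edgeR 3.32.1 and build hg38 are listed; aligner, counter, annotation and strand are not given in the sources used here. The deposited table holds read counts in whole numbers, though it is named for CPM. Columns headed NC were taken as vector, the one group besides ERG, with their numbers; 0 columns were unused.

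Genes with at least 1 CPM in 3 libraries were tested with edgeR 4.0.16 (R 4.3.3), TMM and the two-sided quasi-likelihood test, and adjusted by Benjamini and Hochberg over all 14203 genes. The SE is the log2 fold change over the square root of F. Functions were tested on simulated data. Alternatives used DESeq2 1.42.0, limma 3.58.1, other scalings and filters, a replicate block, the library set term and libraries left out.

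The members, classes and lists were chosen with earlier results of these data known. Classes follow family knowledge. Named are carriers past the threshold, up to 3 per class with the largest log2 fold change among those without overlap and at least 5 CPM in the higher group, and the 2 with the highest mean CPM per class. GENCODE matched all 176 carriers, 172 by current name. Levels per kilobase use the longest principal transcript. Values of some carriers that the rule names are not reported here.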

Additional observations from a re-analysis of the deposited data

How the results depend on the processing

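The log2 fold changes of the 6 called carriers kept their sign under every alternative that tested them, while the number of calls moved widely. DESeq2 called 1006 genes and 20 carriers, the library set term 1869 and 33, and the set term with ERG replicates 1 and 2 summed 1001 and 20. With these replicates summed, edgeR and limma called 0 genes and 0 carriers, and limma also 0 and 0 without ERG replicate 1 or 2. With 1 library left out in turn, edgeR called 0 to 441 genes and 0 to 11 carriers. There were 1 carrier (SLC45A3) and 19 genes without vector replicate 2, and 2 carriers and 51 genes without vector replicate 3. Without ERG replicate 3 there were 8 carriers (4.55%) and 441 genes (3.1%). The fit without vector replicate 1 gave 11 carriers (6.25%) and 441 genes (3.1%). The median log2 fold change of the carriers was -0.064 with upper quartile scaling, -0.049 with the set term, -0.041 with the set term and summed replicates, and -0.11 to -0.053 with 1 library left out. The alternatives with summed replicates and the set term, and those of DESeq2 and limma on fewer libraries, were chosen after seeing the data. The cause of these shifts was not tested.

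With the set term, 19 of the 176 carriers changed sign, 0 of them past the threshold in either fit and none with a log2 fold change beyond 0.42 in size without the term. Over all alternatives, run for the 44 carriers that the naming rule picks, 4 changed sign. With the set term, SLC39A3 was at -0.024, SLC25A6 at -0.068 and SLC29A1 at 0.00136, and with summed replicates too at -0.00137, -0.026 and 0.00308. SLC25A6 was at -0.00264 and -0.00413 with DESeq2 on summed replicates and without ERG replicate 2. With 1 library left out, SLC39A3 ranged from -0.030 to 0.48, SLC25A6 from -0.089 to 0.30 and SLC16A3 from -0.87 to 0.52.

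With the replicate number as a block, 905 genes and 17 carriers passed, the 6 among them. The numbers were not taken as pairs: deviations of same-numbered libraries correlated at 0.628, -0.285 and 0.589, and ERG replicate 2 correlated best with vector replicate 1. Low counts limit SLC30A10, SLC25A21 and the other carriers of few CPM.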
